A study of Homo sapiens with 12 samples.

Results

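The pentose phosphate pathway is represented here by 6 enzyme genes, PGD, PGLS, RPE, RPIA, TALDO1 and TKT, chosen by symbol from the 17520 genes of the expression table. All 6 passed the filter on low values. Added to these are the N6-methyladenosine (m6A) sites in their gene bodies on the gene strand, which were 21 of the 63578 sites listed with insulin and Torin1 and 22 of the 96671 listed with insulin alone. HEK293E is a cell line that goes back to cells of a human embryonic kidney, and its cultures were starved of serum overnight. In the insulin+Torin1 group, cells were pretreated with Torin1 at 250 nM, which blocks the kinase activity of mTOR, and given 200 nM insulin for 30 h. In the insulin group, cells received the same insulin without Torin1. No group without insulin was analysed here, so both groups share the starvation and the hormone. Poly(A)-selected mRNA was sequenced as input (3 libraries per group) or taken through miCLIP (3 per group), in which an m6A antibody is crosslinked to RNA and leaves substitutions in the reads. The labels call the replicates biological, without naming separate cultures, so the p-values below speak of the spread among the libraries, which may be technical.

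The pentose phosphate pathway branches from glycolysis at glucose 6-phosphate. Its oxidative branch makes NADPH, the reductant for lipid synthesis and for glutathione, and ends in ribulose 5-phosphate. Its non-oxidative branch interconverts sugar phosphates reversibly, so that ribose 5-phosphate can be made for nucleotides or carbon can return to glycolysis. PGLS hydrolyses 6-phosphogluconolactone and PGD oxidises 6-phosphogluconate with release of NADPH. RPIA turns ribulose 5-phosphate into ribose 5-phosphate and RPE turns it into xylulose 5-phosphate, while the transferases TKT and TALDO1 move carbon units between sugars. In mouse fibroblasts mTOR complex 1 is known to raise expression of oxidative branch genes, in part through SREBP transcription factors, and in human lung cancer cells NFE2L2 is known to activate PGD, TKT and TALDO1.

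Totals of the authors' normalized values were 11418114 to 11438881 units in the insulin+Torin1 libraries and 12424643 to 12528454 units in the insulin libraries. The spacing of low values put the worth of 1 read at 1.39 units in insulin+Torin1 replicate 3 and at 1.70, 1.38 and 1.05 units in insulin replicates 1, 2 and 3, or 8.20 M reads against 7.32, 9.10 and 11.8 M. The depth of the other 2 insulin+Torin1 libraries could not be read this way. Markers of other cell types summed to 505 to 527 units with insulin+Torin1 and 299 to 367 with insulin. COL1A1, a collagen gene, made up 487 to 511 and 180 to 233 of these. Among blood cell markers, CD14 was at 0 to 6 and 85 to 95, the haemoglobin gene HBA1 was at 0 to 3 and 17 to 26, and PTPRC and CD3E were at 0 or 1 in each library. Of the markers of an embryonic kidney line, VIM was at 7908 to 7935 units with insulin+Torin1 and 2858 to 2984 with insulin, CDH2 was at 1325 to 1379 and 788 to 878, LHX1 was at 139 to 153 and 131 to 137, and PAX2 was at only 6 to 11 in all libraries. The part of these shifts in the results was not tested.

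The mRNAs of the pathway did not move as one. With Torin1, 4 of the 6 rose (PGLS, RPIA, TKT and TALDO1), PGD fell, and RPE was not called (Benjamini-Hochberg adjusted p below 0.05 over all tested genes). Over all 13842 tested genes, 43.4% were called higher and 42.5% lower by the same limma test, or 86% in either direction, so the 5 of 6 called here do not set the enzymes apart. The median log2 fold change was 0.32 over the 6 enzymes and 0.02 over all tested genes. Among all tested genes, the 6 ran from the 35.9th percentile of fold changes for PGD to the 76.2nd for PGLS. In bulk RNA, a fall in RNA per cell cannot be told apart from a fall in the number of cells that express the gene.

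**Figure D1:**
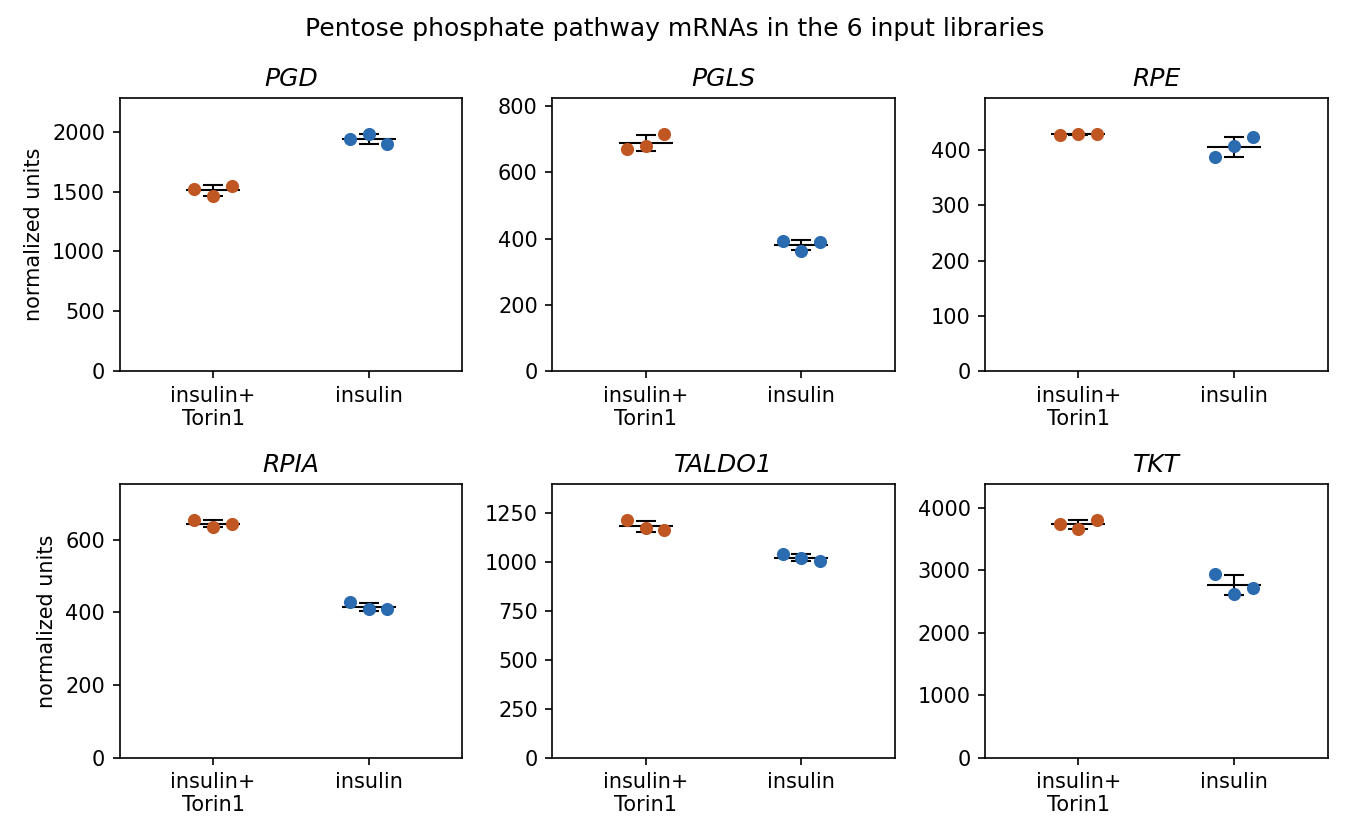
Normalized units (vertical axes, each from 0) of the 6 enzyme mRNAs in 3 insulin+Torin1 libraries (left, orange) and 3 insulin libraries (right, blue), with black bars for the mean and SD. PGD lies lower with insulin+Torin1, at 1459 to 1550 against 1895 to 1983, and PGLS higher, at 671 to 717 against 364 to 393.

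In the oxidative branch, the neighbouring enzymes PGLS and PGD went opposite ways. PGLS, the lactonase, had 671, 679 and 717 units in the insulin+Torin1 libraries and 393, 364 and 389 units in the insulin libraries. The lowest insulin+Torin1 library was far above the highest insulin library, and the means were 689 ± 24.6 and 382 ± 15.7 (SD, n = 3 each), a ratio of 1.80. The log2 fold change was 0.85 ± 0.06 (SE; limma adjusted p = 4.44e-12). PGLS was also the only one of the 6 called for a change beyond 1.5-fold (limma treat adjusted p = 0.000275), a call made upward for 25% and downward for 22.5% of all tested genes.

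PGD, the NADPH-producing dehydrogenase, had 1519, 1459 and 1550 units with insulin+Torin1 and 1936, 1983 and 1895 with insulin. Each insulin+Torin1 library was lower than each insulin library. The means of 1509 ± 46.3 and 1938 ± 44.0 (SD, n = 3 each) gave a log2 fold change of -0.36 ± 0.04 (SE; limma adjusted p = 1.15e-08), and the mean fell by 22.1%. The call depended on scaling: with quantile normalization its log2 fold change was -0.08 (limma adjusted p = 0.0510) and PGD was not called, and with equal totals it was -0.24 and called.

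Of the 2 enzymes that act on ribulose 5-phosphate, the isomerase rose and the epimerase was not called. RPIA, which leads to ribose 5-phosphate, had 654, 634 and 643 units with insulin+Torin1 and 427, 408 and 408 with insulin. The groups were well apart, with means of 644 ± 10.02 and 414 ± 11.0 (SD, n = 3 each), a ratio of 1.55 and a log2 fold change of 0.63 ± 0.06 (SE; limma adjusted p = 4.29e-10). A change beyond 1.5-fold was not called for RPIA (limma treat adjusted p = 0.364), but it was with all libraries scaled to equal totals (log2 fold change 0.76, adjusted p = 0.00677).

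RPE, the epimerase, had 427, 429 and 428 units with insulin+Torin1 and 387, 407 and 423 with insulin. The groups did not overlap, but the highest insulin library came within 4 units of the lowest insulin+Torin1 library. In insulin replicate 1 the 387 units stood for about 227 reads, the fewest of any enzyme in the 4 libraries whose depth could be read. The log2 fold change was 0.08 (95% interval -0.05 to 0.21; limma adjusted p = 0.254), which spans both a small fall and a small rise. Scaled to equal totals RPE was called higher at 0.20 (adjusted p = 0.00537), and with quantile normalization it was at -0.02. The annotation lists several RPE pseudogenes and the related gene RPEL1, and pseudogenes of PGD, RPIA and TALDO1. How the authors' counting divided reads among such copies is not given in the sources used here, so small changes in these genes are uncertain. RPE also overlaps KANSL1L, on the other strand, at its end, as PGLS does PGLS-DT at its start, and whether the counting used strand is likewise not given.

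Both transferases of the non-oxidative branch rose, by different amounts. TKT, transketolase, had 3736, 3662 and 3805 units with insulin+Torin1 and 2938, 2626 and 2721 with insulin. The insulin libraries were spread more widely, but no values overlapped, and the means were 3734 ± 71.5 and 2762 ± 159.9 (SD, n = 3 each). The log2 fold change of TKT was 0.44 ± 0.04 (SE; limma adjusted p = 2.87e-10), and 0.75 with quantile normalization, where it was called beyond 1.5-fold (limma treat adjusted p = 0.000334).

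TALDO1, transaldolase, had 1216, 1173 and 1164 units with insulin+Torin1 and 1041, 1022 and 1006 with insulin. Again every insulin+Torin1 library was the higher one, with means of 1184 ± 27.8 and 1023 ± 17.5 (SD, n = 3 each). This was a smaller rise of 15.8%, or 0.21 ± 0.04 on the log2 scale (SE; limma adjusted p = 9.95e-05). It was 0.34 with libraries scaled to equal totals and 0.39 with quantile normalization, and TALDO1 was called in both.

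**Figure D2:**
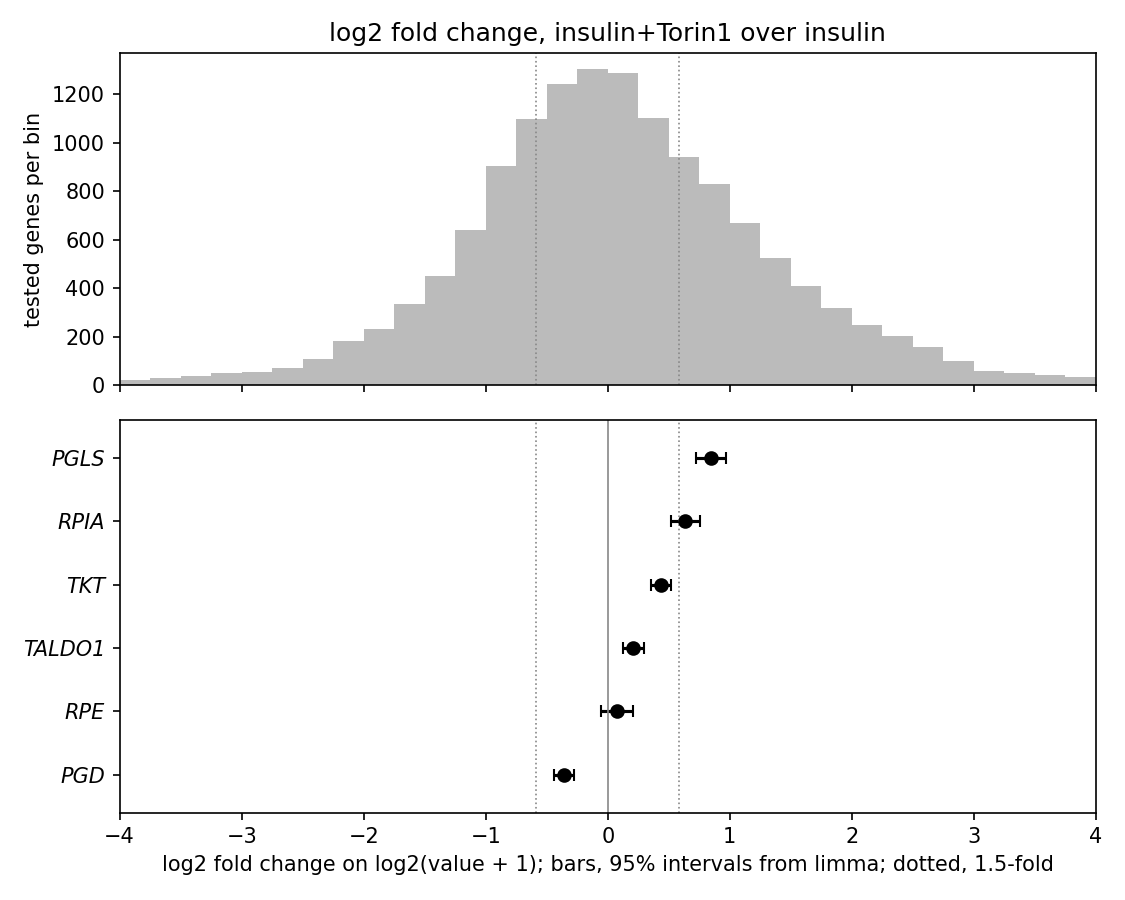
Top, number of tested genes by log2 fold change of insulin+Torin1 over insulin, in bins of 0.25; bottom, the 6 enzymes with limma 95% intervals on the same horizontal axis, dotted lines marking 1.5-fold. The enzymes run from PGD at -0.36 to PGLS at 0.85, inside the bulk of the distribution.

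By fold change the enzymes ran from PGLS through RPIA, TKT, TALDO1 and RPE to PGD. The 95% intervals of PGLS (0.73 to 0.97) and RPIA (0.52 to 0.75) overlapped, and that of RPIA touched that of TKT (0.36 to 0.52). TALDO1 (0.12 to 0.30) lay below TKT and overlapped RPE, and PGD (-0.44 to -0.28) lay apart from all others. These differences between genes were not tested. Groups of libraries did not overlap in all 6 enzymes, upward in 5 and downward in 1, where 43.5% and 42.8% of all tested genes showed this. Leaving out any 1 of the 6 libraries changed no call, with PGLS between 0.82 and 0.87 and PGD between -0.38 and -0.34. The values are not divided by transcript length, so levels were not compared between enzymes.

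The closest patterns over the 6 libraries, by Euclidean distance between log2 values centred on their own means, belonged to genes outside the pathway. They were PPP1R12C for PGLS (distance 0.0419), PLCXD1 for PGD (0.0418), GSK3A for RPIA (0.0454), ASPH for RPE (0.0271), FOXP1 for TKT (0.0167) and SLC30A9 for TALDO1 (0.0396). With 6 libraries in 2 groups these distances mostly record a similar fold change.

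Genes next to the pathway were mostly higher too. Of 17 related pentose and ribose phosphate genes, 12 were tested, 10 were called higher and 1 lower, and their median log2 fold change was 0.67, beside 43.4% higher, 42.5% lower and a median of 0.02 over all tested genes. The largest rises were in the phosphoglucomutase genes PGM2 (2.10) and PGM1 (1.91) and in PRPS2 (1.73), which encodes a synthetase of phosphoribosyl pyrophosphate from ribose 5-phosphate. SHPK, which encodes the kinase of sedoheptulose, was the 1 that fell (-0.995). Each gene named with its log2 fold change from this list and the 3 that follow was called by the same limma test.

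Glycolysis genes and the other sources of NADPH were mostly lower on the authors' scaling. Of 20 tested glycolysis genes 13 fell and 4 rose, with a median of -0.41, where 42.5% of all tested genes were lower and 43.4% higher with a median of 0.02. HK2, a hexokinase gene, changed by -1.80, ALDOA, an aldolase gene, by -1.56 and LDHA, a lactate dehydrogenase gene, by -1.16, while the phosphofructokinase genes PFKL and PFKM were at 1.71 and 1.221 and GAPDH at 0.29. Of 12 tested genes of other NADPH sources 8 fell and 3 rose, with a median of -0.50, beside the same 42.5% and 43.4% of all tested genes. The cytosolic and mitochondrial isocitrate dehydrogenase genes parted, with IDH1 at -2.06 and IDH2 at 1.59. ALDH1L1 and MTHFD2, folate enzyme genes, were at -1.90 and -1.73, and MTHFD1 and NNT at 0.19 and 0.12.

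Among 14 tested genes known as targets of NFE2L2, a transcription factor of the oxidative stress response, 9 fell and 3 rose, with a median of -0.70, again beside 42.5% and 43.4% of all tested genes. The cystine transporter gene SLC7A11 was at -4.55, the heme oxygenase gene HMOX1 at -3.42 and the peroxiredoxin gene PRDX1 at -1.82. EPHX1 was at 1.52, GCLC, a glutathione synthesis gene, at 0.88 and ABCC1 at 0.63. PGD, TKT and TALDO1 were not counted in this list. With libraries scaled to equal totals or quantile normalized the medians of the 4 lists kept their signs, at 0.79 and 0.59 for the related pentose genes, -0.28 and -0.25 for glycolysis, -0.38 and -0.38 for the other NADPH sources and -0.58 and -0.71 for the NFE2L2 targets. Of the 20 glycolysis genes, 11 and 13 were then called lower and 6 and 6 higher. Of the 12 genes of other NADPH sources, 6 and 6 were called lower and 3 and 3 higher.

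The stretch before the annotated start was searched for sequence motifs in all 6 enzymes, since 4 of them rose together and 1 fell. RefSeq promoters of 300 bases (GRCh38.p14, 250 before to 50 after the start) were read on both strands. The motif TGANNNNGC, a loose form of the core to which NFE2L2 is known to bind, was in 3 of the 6. These were PGD (2 matches), PGLS (1) and RPE (1), and the motif was in 41.8% of all 35116 promoters. The matches are shown with the motif, on either strand, in capitals.
PGD, chr1:10398852-10398881, plus strand: gcctcgccgggGCAATGTCAtctaggtgct
PGD, chr1:10398882-10398911, plus strand: cggcgctccacTGATCCGGCccccgggggt
PGLS, chr19:17511411-17511440, plus strand: ccggccctcccTGATACAGCaaggttgagc
RPE, chr2:210002476-210002505, plus strand: aggcggacggcTGACAGCGCcccaccccag

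The CCAAT box was in 5 of the 6 promoters, all but PGLS, and in 34.6% of all promoters. It is printed for the enzyme that fell and for 2 that rose, with the box or its reverse complement in capitals.
PGD, chr1:10398945-10398974, plus strand: gcgtcggggagagCCAATggtgtggcttca
RPIA, chr2:88691521-88691550, plus strand: agagcattatgggATTGGtagtccagactg
TALDO1, chr11:747383-747412, plus strand: gcgccgctttccgATTGGcagccgcccgcg
The GC box GGGCGG was in all 6, against 45.0% of all promoters, with 5 matches in TKT that in part lie side by side. The E-box CACGTG, to which MYC and MAX are known to bind, was in 0 of the 6 and in 7.26% of all promoters. A match of letters shows no binding, and no motif here separates the enzymes that rose from the one that fell.

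The m6A sites were very unevenly spread over the 6 mRNAs. PGD, PGLS and TKT held 21 of the 21 sites with insulin+Torin1 and 19 of the 22 with insulin, whereas RPE and TALDO1 had 0 and 0 sites with insulin+Torin1 and 1 and 2 with insulin, and RPIA had 0 in each list. Of 10414 tested genes with a known body and strand, 77% had a site on the gene strand with insulin+Torin1 and 79.1% with insulin, with a median of 3 sites in either list. Each list carries 1 entry per position, under 1 replicate, so site numbers have no replicate error and no test. The lists also differ in make-up: replicate 2 supplied 1552 sites with insulin+Torin1 and 39670 with insulin, while replicate 1 supplied 56298 and 50656.

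**Figure D3:**
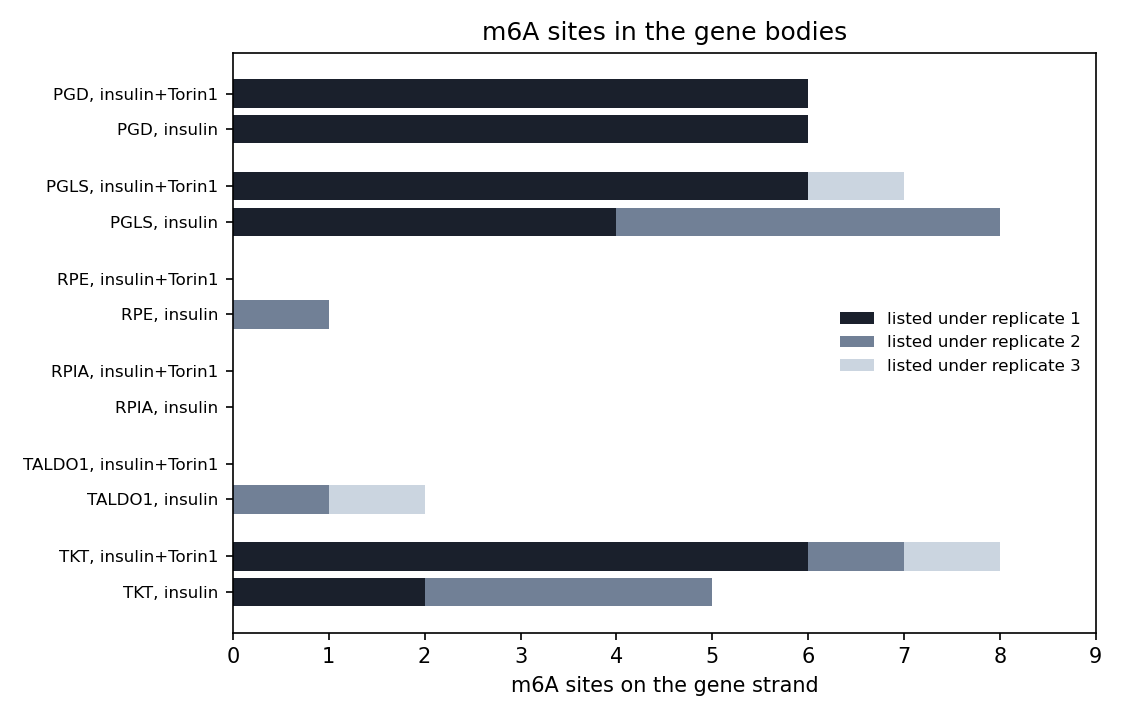
Number of m6A sites on the gene strand (horizontal axis) in each gene body, insulin+Torin1 above insulin for each gene, shaded by the replicate a site is listed under. PGD has 6 and 6 sites, PGLS 7 and 8, TKT 8 and 5, and RPIA none.

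Every listed site of these genes carried the DRACH motif of m6A, in which the A follows a purine and precedes a C. The same held for 100% of the sites in both whole lists, so it says nothing particular about these genes. At 2107 listed sites that lie within RefSeq promoter windows, the listed position was the central A of the 5-mer each time. The 5-mers are printed here for the 11 sites on the gene strand found in both lists, since these are the sites that recur, with the methylated A in capitals and hg38 positions.
PGD, chromosome 1, 10419791: ggAca
PGD, chromosome 1, 10419870: agAct
PGD, chromosome 1, 10419948: ggAct
PGD, chromosome 1, 10420140: agAct
PGLS, chromosome 19, 17516258: ggAct
PGLS, chromosome 19, 17517803: gaAct
PGLS, chromosome 19, 17521009: aaAct
PGLS, chromosome 19, 17521108: ggAcc
PGLS, chromosome 19, 17521257: ggAca
TKT, chromosome 3, 53241175: gaAcc
TKT, chromosome 3, 53255920: tgAcc
These 11 made up 11 of 21 sites with insulin+Torin1 (52.4%) and 11 of 22 with insulin, where 43.1% and 28.3% of all sites in those lists recurred. GGAC opened the 5-mer at 8 of the 21 and 9 of the 22 sites (38.1% and 40.9%), against 32.9% and 31.5% over the whole lists.

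In PGD (plus strand, chromosome 1, 10399064 to 10420511, hg38) the sites gathered at the end of the gene. Of its 6 sites in each list, 4 were the same positions, 371 to 720 nt before the annotated end, and all 12 entries were listed under replicate 1. The site with the most substituted reads was 10419948 in both lists, with 12 of 71 reads with insulin+Torin1, or 16.9% (exact Clopper-Pearson 95% interval 9.05% to 27.7%), and 3 of 26 with insulin, or 11.5% (2.45% to 30.2%). At 10419791 it was 6 of 93 reads with insulin+Torin1 and 2 of 21 with insulin, and at 10420140 it was 3 of 12 and 1 of 5. At 10419870 it was 1 of 15 and 1 of 8. Reads over all 4 sites were more numerous with insulin+Torin1, while PGD mRNA was lower there. Such reads are not scaled for depth, and they were more numerous at 77.0% of all sites listed under replicate 1 in both lists. Intervals cover counting error only, since reads are not independent molecules.

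PGLS (plus strand, chromosome 19, 17511649 to 17521288) had 7 sites with insulin+Torin1 and 8 with insulin, 5 of them shared. Of the 5, 3 lay within 31 to 279 nt of the annotated end. Under replicate 1 alone there were 6 sites with insulin+Torin1 and 4 with insulin. The most substituted reads with insulin+Torin1 were at 17521108, with 3 of 73 or 4.11% (0.856% to 11.5%), against 1 of 3 reads with insulin. With insulin they were at 17517905, ggAca, with 2 of 9 reads or 22.2% (2.81% to 60.01%), a position that was not in the insulin+Torin1 list. Reads at 17516258 were 1 substituted of 42 with insulin+Torin1 and 1 of 12 with insulin, at 17517803 they were 2 of 45 and 1 of 13, and at 17521009 they were 1 of 45 and 1 of 4. At 17521257 all reads were substituted, 2 of 2 with insulin+Torin1 and 1 of 1 with insulin.

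**Figure D4:**
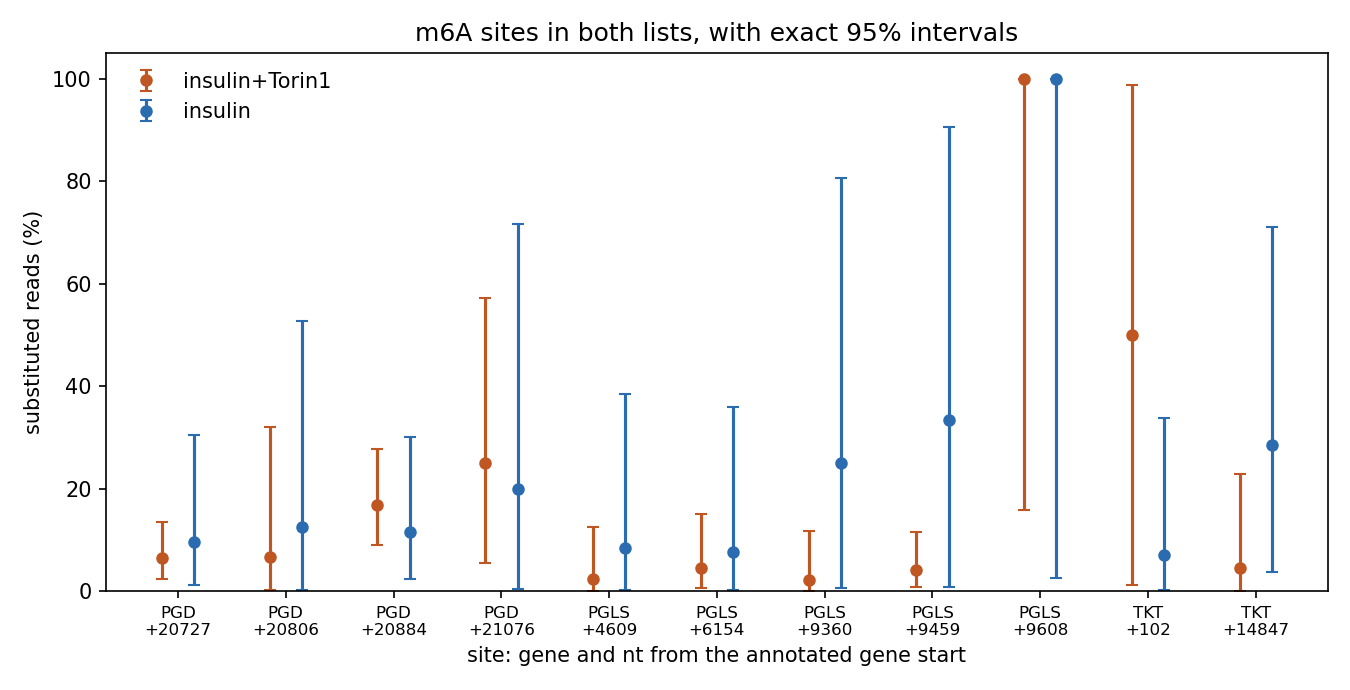
Substituted reads in percent (vertical axis, with exact 95% intervals) at the 11 gene-strand sites in both lists, insulin+Torin1 in orange left of insulin in blue, labelled by gene and distance from its start in nt. The intervals overlap at all 11 sites, and those of insulin are mostly wider because fewer reads lay over these sites.

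Among the 11 shared sites 10 had more reads with insulin+Torin1 and 7 had a lower substituted share there. The intervals of the 2 lists overlapped at each of the 11, which is no test of the difference, and 5 of the 11 set different replicate numbers side by side. For the 6 listed under replicate 1 in both lists, the median ratio of reads was 3.10 and the median difference in the share (insulin+Torin1 minus insulin) was -3.16 points, with a lower share at 4 of 6. Of these 6, the 4 of PGD had a median ratio of 2.57 and a median difference of 0.96 points. The 2 of PGLS had 13.9 and -16.2 points. Over all 16264 such sites in the series the ratio was 1.86, with more reads with insulin+Torin1 at 77.0%, and the difference was -3.25 points, with a lower share at 71.4%. The reads over a site were thus higher with insulin+Torin1 across the series and not in these genes alone. Every listed site of the enzymes has at least 1 substituted read, so a site with few reads cannot show a low share. At 17521108 of PGLS, the 1 of 3 reads with insulin is the lowest share a listed site with 3 reads can have. The part of this limit in the lower shares and in the difference between PGD and PGLS was not tested. Of the enzymes' sites, 13 of 21 with insulin+Torin1 and 16 of 22 with insulin rested on a single substituted read (61.9% and 72.7%, against 59.6% and 61.6% over the lists).

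TKT (minus strand, chromosome 3, 53224712 to 53256022) had 8 sites on its own strand with insulin+Torin1 and 5 with insulin, or 6 and 2 under replicate 1. They were scattered, with 1 within 2000 nt of the annotated end with insulin+Torin1 and 2 with insulin. The shared site 53255920 lay 102 nt from the annotated start, with 1 of 2 reads substituted with insulin+Torin1 and 1 of 14 with insulin. The other, 53241175, had 1 of 22 and 2 of 7. The most substituted reads with insulin+Torin1 were at 53230566, tgAcc, with 4 of 5 reads (28.4% to 99.5%). With insulin 2 sites tied, 53224726, aaAcc, with 3 of 3 reads and 53226823, aaAct, with 3 of 22, and none of these 3 positions recurred in the other list.

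The body of TKT held more sites on the opposite strand than on its own. There were 18 with insulin+Torin1 and 16 with insulin, and 5 of these were shared. They filled 1 stretch of the gene, from 53228145 to 53235296 with insulin+Torin1 and from 53228531 to 53231984 with insulin, which is 20726 to 27877 and 24038 to 27491 nt from the start of TKT. By replicate 1, 2 and 3 they numbered 16, 1 and 1 with insulin+Torin1 and 7, 8 and 1 with insulin. They are not sites of TKT mRNA and enter none of the counts above. The annotation used here lists no other gene over TKT. Its neighbours are PRKCD, on the plus strand, which ends at 53192717, and LOC107986087, a long non-coding RNA gene that starts at 53269974 and whose strand is not given in the tables used here.

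**Figure D5:**
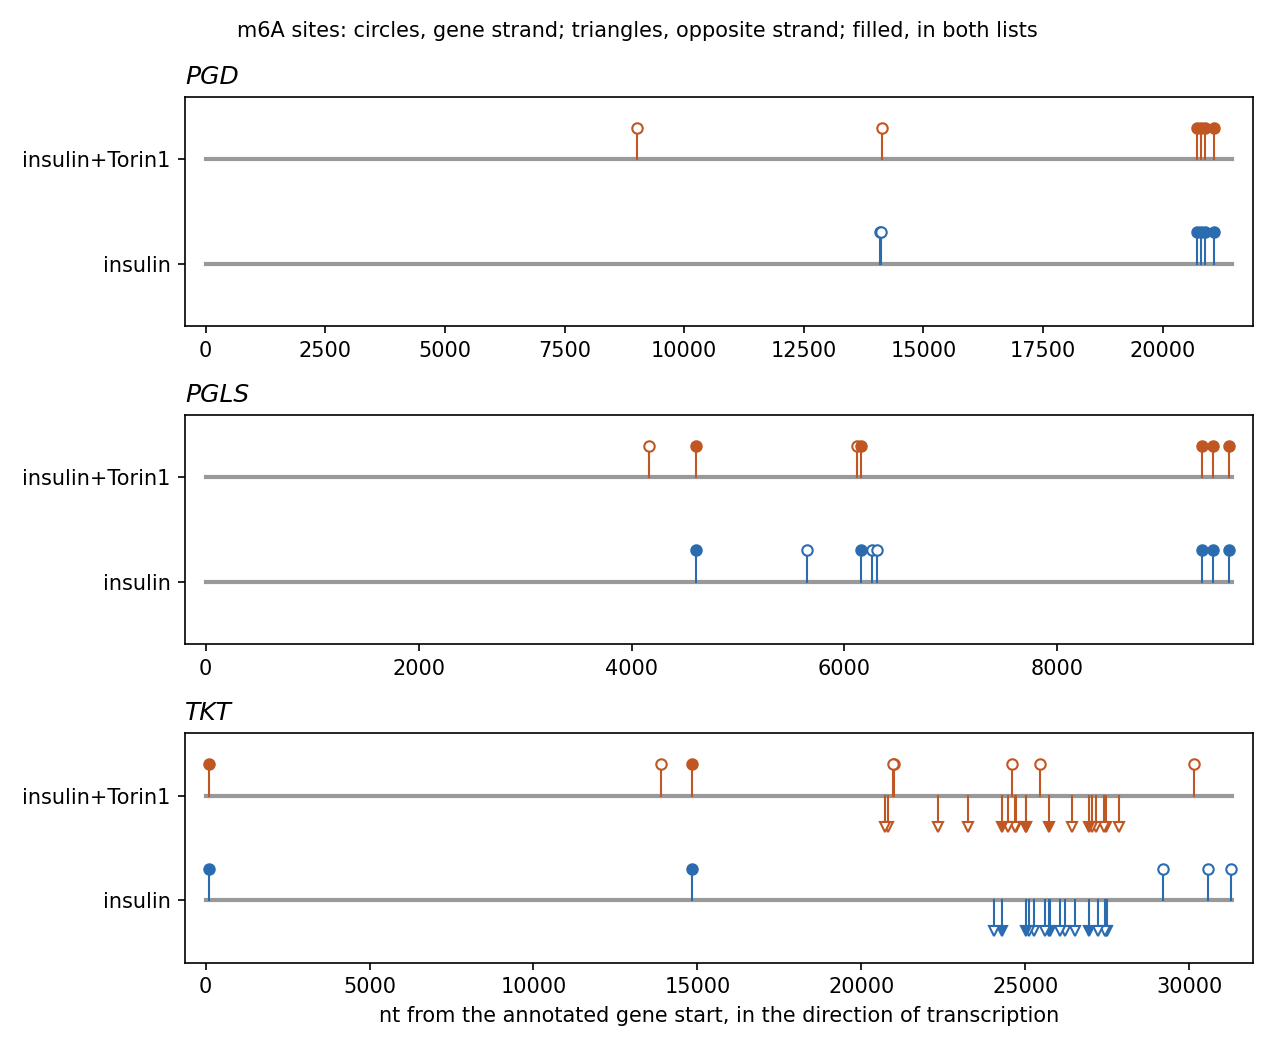
Positions of m6A sites along PGD, PGLS and TKT, in nt from the annotated start in the direction of transcription (horizontal axes), with insulin+Torin1 (orange) above insulin (blue). Circles point up for the gene strand, triangles down for the opposite strand, and filled marks are in both lists. The shared sites of PGD lie 371 to 720 nt from its end, and the 18 and 16 opposite-strand sites of TKT form 1 cluster.

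The other 3 enzymes gave few sites or none. RPE (plus strand, chromosome 2, 210002638 to 210022260) had 1 site with insulin, at 210019856, tgAct, with 1 of 11 reads, listed under replicate 2. TALDO1 (plus strand, chromosome 11, 747464 to 765012) had 2 with insulin, at 763861, tgAct, with 1 of 3 reads and at 764863, ggAct, with 1 of 13, listed under replicates 3 and 2. None of these 3 came from replicate 1, so between the replicate 1 entries alone RPE and TALDO1 had 0 sites in each list. In the body of RPIA (plus strand, chromosome 2, 88691673 to 88750929) there was none. A site lay 50 nt before its annotated start, in the insulin list under replicate 2, with 1 of 4 reads substituted. It is printed because it is the only site in an enzyme's promoter window, with the 5-mer in capitals and the methylated A at its centre.
RPIA, chr2:88691608-88691637, plus strand: cagcagggcacgcAGACTgtgtgcgtaagc
Thus of the 4 enzymes whose mRNA rose, PGLS and TKT carried sites in both lists, TALDO1 in the insulin list, and RPIA in neither.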

How the data were processed

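Per the submitters' processing notes, hg38, BWA 0.7.1, STAR, DESeq2 1.22.2 and DESeq were used, with no role given for each. The deposited expression values are a score: the authors normalized them between libraries and rounded them, as the near-equal totals and the grid of low values show, so no test for raw counts was used. The deposited fraction of each m6A site is its substituted reads divided by all reads over it, as the file's read numbers show. Genes that reached 10 units in 3 or more libraries entered a limma fit (version 3.58.1, R 4.3.3) of log2(value + 1) on the group, with a trend in the prior variance. Benjamini-Hochberg adjusted p below 0.05 over all tested genes was called, and limma's treat tested for a change beyond 1.5-fold. Fold changes on this scale understate those of low genes. The procedure was checked on simulated data. None of 15 pairs of libraries held identical values. Samples were grouped by their titles. Sites were assigned to RefSeq GRCh38 gene bodies, with the strand from RefSeq promoters. Transcripts were not annotated here, so exons and UTRs are not named. Members and gene lists were chosen with earlier results of these data known. Named genes were all members, the nearest pattern for each, and up to 3 called genes each way per list; named sites were those in both lists and, per member, that with the most substituted reads. Alternatives changed the pseudocount, filter, scaling, variance trend, replicates and site thresholds. One marker of the cell line is not reported here.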

Additional observations from a re-analysis of the deposited data

Results flagged for a closer look

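Signal outside the measured comparison was found on the strand opposite to TKT, with 18 sites with insulin+Torin1 and 16 with insulin. In 6863 protein-coding genes that overlap no other annotated gene, 2.75% of sites with insulin+Torin1 and 4.27% with insulin lay opposite to the gene. Of these genes with 10 or more sites, 6 of 488 with insulin+Torin1 and 15 of 925 with insulin had more opposite sites than own sites. TKT was 1 of 4 for which this held in both lists, with ICAM3, MXRA8 and NHLH2. Over the opposite sites of TKT a median of 10.5 reads with insulin+Torin1 and 5 with insulin was found, and all 5 shared ones had more reads and a lower substituted share with insulin+Torin1. The intervals overlapped at 4 of the 5, and 4 of the 5 set different replicate numbers side by side. Over all sites listed under replicate 1 in both lists, 77.0% had more reads and 71.4% a lower share with insulin+Torin1. The opposite sites of TKT also have at least 1 substituted read each, so those with few reads cannot show a low share.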

How the results depend on the processing

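Over the alternatives run, the fold changes of PGLS, RPIA, TKT and TALDO1 stayed called and positive. With all libraries scaled to equal totals, which moved the median of all genes to 0.14, 2 enzymes were called beyond 1.5-fold (PGLS and RPIA) and RPE was called. With quantile normalization 0 enzymes were called lower and 2 beyond 1.5-fold (PGLS and TKT). The cause was not tested. No pairing by replicate number showed in the values: same-numbered libraries had correlations of -0.07, 0.00499 and -0.02 in their deviations from the group means. These correlations cannot tell whether the samples were paired by design. A fit with the replicate block called 5983 genes higher and 5867 lower, where 6010 and 5888 were called without it, and changed no enzyme's call. Site numbers moved more. Under replicate 1 alone the enzymes had 18 sites with insulin+Torin1 and 12 with insulin, 6 shared. With at least 3 substituted reads there were 6 and 3, 1 shared, and with at least 10 reads there were 17 and 10, 4 shared. Leaving out the entries listed under each replicate in turn gave 3 to 21 sites with insulin+Torin1, 10 to 22 with insulin and 2 to 11 shared. The lowest were without the entries of insulin+Torin1 replicate 1 (3 sites, 2 shared) and insulin replicate 1 (10 sites). As each position is listed under 1 replicate, whether a dropped site was also seen in another cannot be read from the lists. Most of the enzymes' sites rest on 1 substituted read, and the part of depth in which sites are listed was not tested.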
